A study of Mus musculus with 2 samples.

Results

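Genes of TGF-beta, BMP and activin signalling were followed in hearts of transgenic (TG) αMHC/miR-143/145 mice and of non-transgenic (NTG) mice. The set holds 39 genes chosen by name, for their place in the pathway and with earlier results of these data known. It covers the ligands, the proteins that hold or block them, the receptors and the SMAD proteins. The microarray carried a probe for 37 of them, and 32 were above background in both channels of both arrays, out of 12779 named genes that were. No probe is named for Bmpr2 or Grem1. Bmp2, Tgfbr1, Smad9, Fst and Chrdl1 had a probe but were not above background in every channel.

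Heart RNA of a 3-month-old transgenic mouse of line L9, and on another array of line L19, was labeled with Cy3 and hybridized together with Cy5-labeled RNA of a wild-type (NTG) heart of the same age. The TG mice carry human pri-miR-143/145 under the promoter and enhancer of α-myosin heavy chain (αMHC), which drives expression in cardiomyocytes, while the NTG mice carry no transgene. The sources describe 1 control and 1 transgenic mouse per array, and also speak of an average of NTG mice. Since the NTG RNA has an identical label on each array, it stands for 1 control sample here, with the hearts of L9 and L19 as 2 replicates of the transgenic genotype. A level particular to that NTG RNA, or a difference between the dyes, which were not swapped, enters both ratios alike and cannot be told apart from an effect of the transgene. The p-values below rest on the spread between the 2 ratios, moderated by the spread over all genes. That spread holds differences between the TG lines and between the arrays, and leaves out that of NTG mice.

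Ligands of this family are dimers that bring together type I and type II receptor kinases, which phosphorylate SMAD proteins. TGF-betas, activins and myostatin act mainly through SMAD2 and SMAD3, and BMPs through SMAD1, SMAD5 and SMAD9, with SMAD4 as the shared partner and SMAD6 and SMAD7 as inhibitors. In the heart, TGF-beta is best known for driving fibroblasts to deposit matrix, and BMPs for their part in cardiac development.

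A few genes of the BMP and activin branch differed from NTG by 1.5-fold or more in both lines, and no measured TGF-beta gene did. The activin receptor genes Acvr2a and Acvr1, the ligand genes Bmp4 and Mstn, and Fstl1, which encodes a secreted follistatin-like protein, were above NTG by 1.5-fold or more in both lines, with mean ratios of 2.29-fold, 1.78-fold, 1.77-fold, 2.20-fold and 2.02-fold. Smad5 was the measured member below the cutoff in both, at 58.6% of NTG. After normexp, another background correction, Bmp4 and Fstl1 were still past the cutoff in both lines, Acvr2a, Acvr1 and Smad5 kept their direction within it, and Mstn was below NTG. Normexp ratios rose with signal over all genes (Spearman's rho of 0.73), so they cannot set bright members apart from dim ones. The cutoff of 1.5-fold, applied to each line without a test, is that of the study's methods. Thus 5 of 32 members (15.6%) were higher by this cutoff, against 5.2% of all 17485 genes and unnamed probes measured on both arrays, and 1 of 32 (3.12%) was lower, against 3.03%. The share lower was near that of all genes. Since the members were chosen with earlier results of these data known, the share higher is a description and no test of the set. No difference passed limma's test of both ratios against 0 after Benjamini-Hochberg adjustment over all genes, in which 0% of genes passed in either direction. At an unadjusted p under 0.05, limma called 6 of 32 members higher (18.8%) and 2 lower (6.25%), while 15.7% of all genes were higher and 14.4% lower.

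The test itself had little reach on simulated data for this comparison. With 17485 genes, few of them changed, and the spread estimated from the arrays, it recovered 0.4% of 2-fold changes and 74.8% of 4-fold changes. Recovery depends on the share of genes changed, which is not known for the arrays. These rates are therefore those of the simulation. No member measured in both lines had a mean ratio of 4-fold. With the spread estimated by limma's trend and robust options, Bmp4, Fstl1, Acvr2a and Acvr1 were called higher and Smad5, Nog and Eng lower, against 10.5% of all genes higher and 9.59% lower. Those 4 of 32 (12.5%) and 3 of 32 (9.38%) are close to the shares over the whole array.

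**Figure D1:**
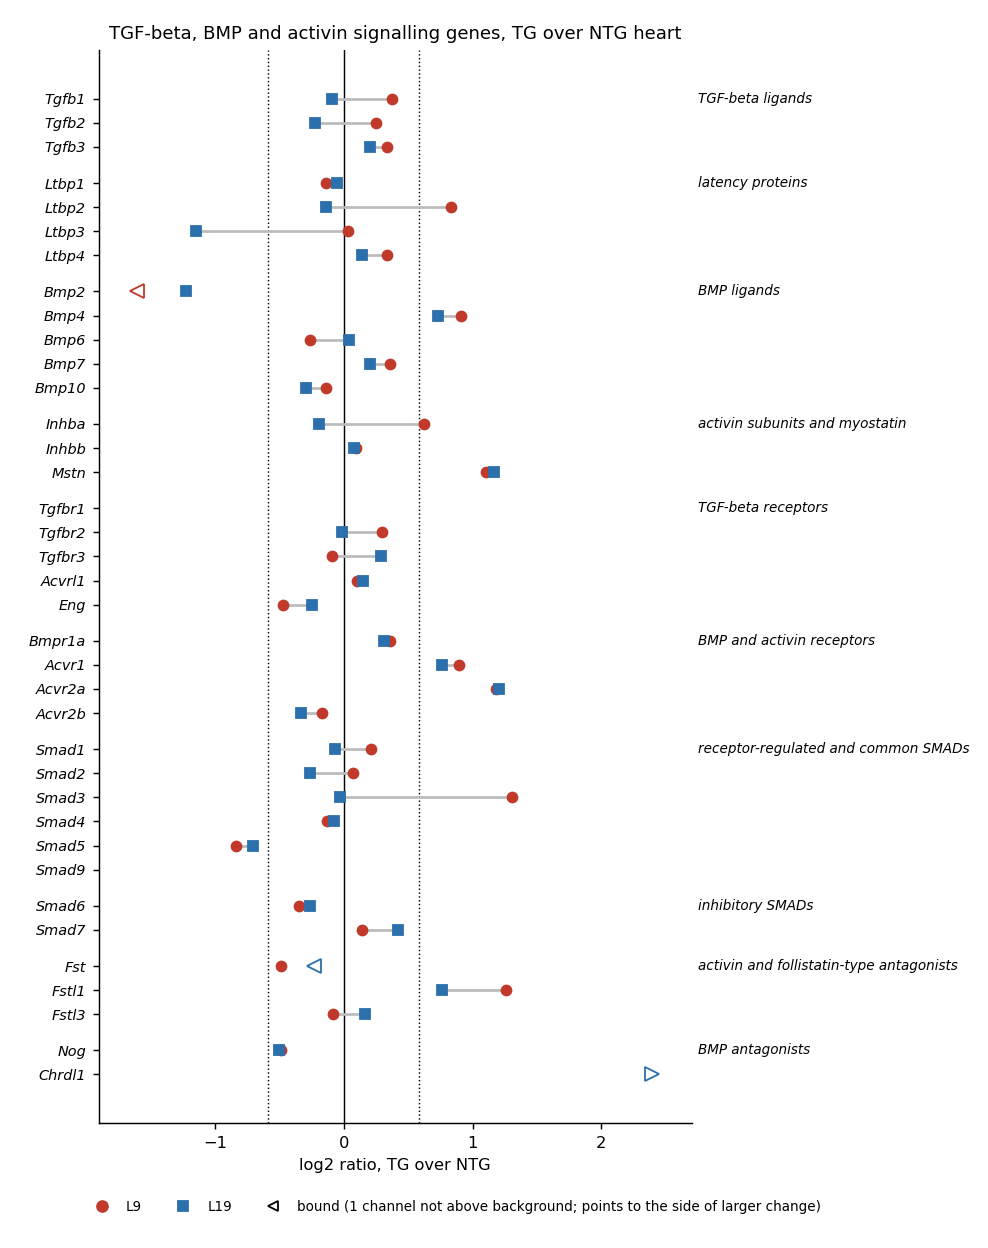
Log2 ratio of TG over NTG (x axis) for the 37 members with a probe (rows, grouped by role), in L9 (circles) and L19 (squares). Dotted lines mark 1.5-fold, and open triangles are bounds, drawn where 1 channel was not above background. Acvr2a, Mstn, Fstl1, Acvr1 and Bmp4 lie right of the upper line in both lines and Smad5 left of the lower one, while Smad3, Ltbp2, Ltbp3 and Inhba have their lines far apart.

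The members as a whole were scattered around NTG. Of the 32, 12 were above NTG in both lines, 8 below NTG in both and 12 had opposite signs in L9 and L19, that is 37.5%, 25.0% and 37.5%, where 35.5%, 38.4% and 26.1% of all genes and unnamed probes did. Their median log2 ratio was 0.11, with 0.18 in L9 and -0.02 in L19, beside a median of -0.01 over all genes and unnamed probes.

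**Figure D2:**
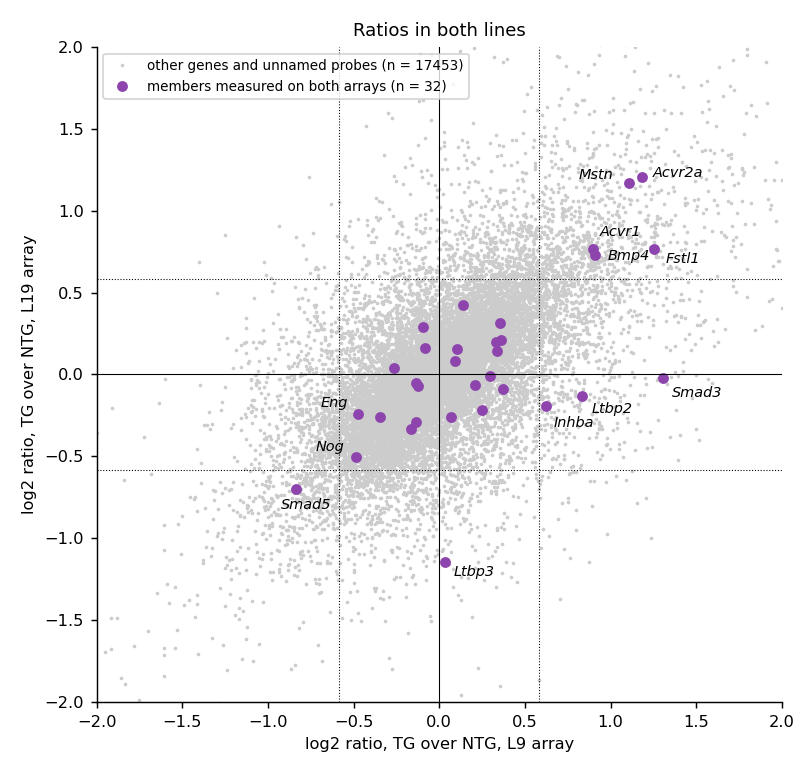
Log2 ratio of TG over NTG in L9 (x axis) and in L19 (y axis) for the 32 members measured on both arrays (purple) and the 17453 other genes and unnamed probes (gray), of which those beyond 2 in either direction are not drawn. Dotted lines mark 1.5-fold. Acvr2a, Mstn, Acvr1, Bmp4 and Fstl1 lie in the upper right corner, Smad5 in the lower left, and Smad3, Ltbp2, Inhba and Ltbp3 outside the cutoff in 1 line only.

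The genes of the 3 TGF-betas stayed close to NTG. Tgfb1, the main isoform in injury and fibrosis, had signals of 21.1 in the L9 heart and 19.7 in the L19 heart, against 16.3 and 21.0 in the NTG channels of those arrays, where a signal is the spot intensity above the blank spots, with the TG channel scaled to the NTG channel. Its log2 ratio was 0.37 in L9 and -0.09 in L19 (limma, adjusted p = 0.585), so the lines lay on opposite sides of NTG. Tgfb2, a TGF-beta isoform needed for heart valve development, had 57.4 and 47.4 in the TG hearts, against 48.4 and 55.3 in NTG, with log2 ratios of 0.25 and -0.22 (limma, adjusted p = 0.964). Tgfb3 had 29.4 and 23.9 in the TG hearts and 23.3 and 20.8 in NTG, with log2 ratios of 0.33 and 0.20 (limma, adjusted p = 0.217). It was above NTG in both lines, but by less than 1.5-fold, and after normexp background correction it was at -0.35. The median over the 3 genes was 0.14 by blank-spot correction and -0.14 after normexp.

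Latent TGF-beta binding proteins tether the inactive TGF-beta complex to the matrix, except the protein of Ltbp2, which does not bind it. Ltbp1 had log2 ratios of -0.13 and -0.05 and Ltbp4, the gene of an isoform abundant in heart, 0.34 and 0.14. The other latency genes differed between the lines. Ltbp2 had a signal of 15.1 in the L9 heart and 8.85 in the L19 heart, against 8.46 and 9.71 in NTG, which gave log2 ratios of 0.84 and -0.13 (limma, adjusted p = 0.438). Ltbp3 had 11.2 in the L9 heart and 4.60 in the L19 heart, against 10.96 and 10.2 in NTG, which gave 0.03 and -1.14 (limma, adjusted p = 0.322). For both genes the NTG channels were alike on the 2 arrays and it was a single TG heart that stood apart, the L9 heart for Ltbp2 and the L19 heart for Ltbp3.

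BMP ligands differed from each other. Bmp4, which encodes a BMP that acts through SMAD1, SMAD5 and SMAD9 and is used throughout heart development, had signals of 117.8 in the L9 heart and 98.1 in the L19 heart, against 62.8 and 59.1 in NTG. Both TG values were above both NTG values, which here and below stand for 1 control sample. The log2 ratios were 0.91 and 0.73, with a mean of 0.82 ± 0.12 (SD, n = 2 lines, as for each mean below; limma, adjusted p = 0.0855, and adjusted p = 0.0029 with trend and robust options). Its log2 ratio was 0.64 after normexp.

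Bmp2, which encodes the closest relative of BMP4 in sequence, lay on the other side of NTG. Its signal was 4.41 in the L19 heart against 10.3 in NTG, a log2 ratio of -1.23. In the L9 heart it was not above background, at a measured 2.60 against 9.73 in NTG, so that it was at least 3.04-fold lower there. A bound is taken at the lowest signal detected on the array, which was 3.20 in the TG channel of the L9 array. With genes that have such a bound counted, 5.02% of 20464 genes and unnamed probes were higher by the cutoff in both lines and 3.06% were lower, and the members stood at 5 higher and 2 lower. Bmp2 had no place in limma's test, since it lacked a ratio in L9.

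The remaining BMP ligands stayed within 1.5-fold in both lines. Bmp10, made by atrial cardiomyocytes of the adult mouse, had signals of 70.4 and 70.8 in the TG hearts, against 77.3 and 86.7 in NTG, with log2 ratios of -0.13 and -0.29 (limma, adjusted p = 0.295). Both TG values lay below both NTG values, though by little. The atrial cardiomyocyte list of 7 markers, which includes Bmp10, had 3 genes above NTG in both lines, 3 below in both and 1 with opposite signs. Its median log2 ratio was -0.13 in L9, which is the ratio of Bmp10 itself, and 0.44 in L19. Without Nppa, which made up most of their summed signal, 6 markers remain, Bmp10 among them. They summed to 246.0 and 280.7 in the L9 and L19 hearts, against 232.0 and 249.2 in NTG. Bmp6 had log2 ratios of -0.26 and 0.04, and Bmp7 0.36 and 0.21. After normexp the log2 ratio was 0.23 for Bmp10, 0.17 for Bmp6 and -0.43 for Bmp7, each turned in sign.

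Mstn encodes myostatin, which limits muscle growth and is made at a low level by cardiomyocytes. Its signal was 4.04 in the L9 heart and 7.35 in the L19 heart, against 1.88 and 3.27 in NTG. Within each array the TG channel was over 2-fold the NTG channel, with log2 ratios of 1.11 and 1.17 and a mean of 1.14 ± 0.04 (limma, adjusted p = 0.0855, and adjusted p = 0.0579 with trend and robust options). The signals themselves were higher on the L19 array in the NTG channel too, and lay close to the lowest signal detected, 3.20 and 3.24 in the TG channels. After normexp, which keeps part of the background in dim spots, the log2 ratio was -0.19, so the direction of Mstn depends on the background correction.

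The activin subunit genes were dim as well. Inhba, which encodes the subunit of activin A, had 11.5 in the L9 heart and 6.44 in the L19 heart, against 7.49 and 7.36 in NTG, with log2 ratios of 0.62 and -0.19 (limma, adjusted p = 0.572). As with Ltbp2, it was the L9 heart that stood above the other 3 values. Inhbb, the gene of the activin B subunit, had log2 ratios of 0.09 and 0.08.

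The promoter of Mstn held 3 of the 5 motifs searched for, as did that of Tgfb2. The window runs from 250 bases before to 50 after its start in RefSeq's annotation of GRCm38.p6, at chr1:53061390-53061689 on the plus strand, and is shown with a TATA box and a CAGA motif in capitals.
Mstn: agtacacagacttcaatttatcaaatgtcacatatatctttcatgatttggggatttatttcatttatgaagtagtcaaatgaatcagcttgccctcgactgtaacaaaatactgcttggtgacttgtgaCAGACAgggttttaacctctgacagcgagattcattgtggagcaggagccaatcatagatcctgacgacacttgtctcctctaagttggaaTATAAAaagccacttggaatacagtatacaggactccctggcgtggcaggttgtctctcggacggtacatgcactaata
The TATA box was searched as TATAAA, which on the other strand reads as TTTATA, and begins 29 bases before the start. The CAGA motif, to which SMAD3 and SMAD4 bind, was searched as CAGACA, which on the other strand reads as TGTCTG, and begins 120 bases before it. A CCAAT box, which on the other strand reads as ATTGG, begins 72 bases before the start, left in lower case. Over 32851 windows of this length, 13.6% held the TATA box, 21.0% the CAGA motif and 37.4% the CCAAT box. Of the members, 28 had a window that is used here, and the TATA box was found in those of Fstl3, Inhba, Mstn and Tgfb2 and the CAGA motif in those of 6 members. These are matches of letters and show no binding.

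Of the receptor genes, Acvr2a and Acvr1 were past the cutoff and no measured one of TGF-beta was, while Tgfbr1 gave no ratio. Acvr2a, which encodes a type II receptor for activins, myostatin and several BMPs, had signals of 18.1 in the L9 heart and 22.5 in the L19 heart, against 7.995 and 9.77 in NTG. Both TG hearts were above both NTG values by about the same factor, with log2 ratios of 1.18 and 1.204 and a mean of 1.19 ± 0.02 (limma, adjusted p = 0.0855, and adjusted p = 0.0062 with trend and robust options). Acvr1, which encodes the type I receptor ALK2, had 33.3 and 37.1 in the TG hearts, against 17.9 and 21.8 in NTG. Both TG values lay above both NTG values. The log2 ratios were 0.90 and 0.76, and their mean was 0.83 ± 0.09 (limma, adjusted p = 0.0855, and adjusted p = 0.0070 with trend and robust options). After normexp the log2 ratio was 0.25 for Acvr2a and 0.46 for Acvr1, above 0 but under 1.5-fold.

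Bmpr1a, the gene of a type I BMP receptor, had log2 ratios of 0.36 and 0.31 with a mean of 0.33 ± 0.03 (limma, adjusted p = 0.155). Acvr2b, the gene of the other activin type II receptor, had -0.17 and -0.33, the opposite side from Acvr2a. The 4 measured receptor genes of this branch had a median log2 ratio of 0.58, or 0.21 after normexp, where Acvr2b was at 0.05.

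Both receptor genes past the cutoff have starts dense in CpG, which is why they are shown. Acvr2a starts at chr2:48814109 on the plus strand and Acvr1 at chr2:58566828 on the minus strand, and the windows are chr2:48813859-48814158 and chr2:58566779-58567078. No capitals appear, since neither holds a TATA box, a CAGA motif, the palindrome GTCTAGAC or the GC-rich motif GGCGCC, both of which read the same on either strand.
Acvr2a: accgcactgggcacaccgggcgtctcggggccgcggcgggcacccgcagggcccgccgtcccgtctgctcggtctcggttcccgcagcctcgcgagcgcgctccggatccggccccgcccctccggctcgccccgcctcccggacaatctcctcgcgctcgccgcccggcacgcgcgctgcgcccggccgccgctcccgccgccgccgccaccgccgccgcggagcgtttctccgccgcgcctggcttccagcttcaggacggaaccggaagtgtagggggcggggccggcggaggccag
Acvr1: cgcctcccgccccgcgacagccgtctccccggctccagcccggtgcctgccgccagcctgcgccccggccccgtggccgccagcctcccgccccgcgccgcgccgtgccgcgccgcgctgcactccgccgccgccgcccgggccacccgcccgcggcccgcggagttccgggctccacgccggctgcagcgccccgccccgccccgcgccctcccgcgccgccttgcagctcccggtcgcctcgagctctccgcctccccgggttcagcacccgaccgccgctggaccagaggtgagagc
These windows hold 54 and 51 CpG dinucleotides, more than 99.7% and 99.4% of all windows. That of Bmpr1a, whose log2 ratio was lower, holds 48, and those of Bmp4 and Fstl1, which were past the cutoff as well, hold 12 and 21. The median was 25 over the members' windows and 18 over the 12978 windows of named genes measured on both arrays, so not all members that were higher had a dense start.

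TGF-beta receptor genes lay near NTG, apart from Eng. Tgfbr2, the type II receptor gene, had log2 ratios of 0.30 and -0.01, Tgfbr3, which encodes the coreceptor betaglycan, -0.09 and 0.29, and Acvrl1, which encodes the endothelial type I receptor ALK1, 0.10 and 0.15. Tgfbr1, the type I receptor gene, was not above background in either TG heart, and in NTG only on the L19 array, so no ratio can be given. Eng encodes endoglin, a coreceptor of endothelial cells. Its signals were 77.0 and 108.0 in the TG hearts, against 106.8 and 128.0 in NTG, with log2 ratios of -0.47 and -0.24 (limma, adjusted p = 0.167, and adjusted p = 0.0471 with trend and robust options). Each TG heart was below the NTG channel of its own array, but the L19 heart was at the level of the NTG channel of the L9 array. Endothelial markers moved with it: of 12, 7 were below NTG in both lines and none above, and their median log2 ratio was -0.30. Their summed signals were 8341 and 7192 in TG hearts against 10349 and 10594 in NTG. Most of each sum was Fabp4 alone, at 6647 and 5054 in TG hearts against 8228 and 8089 in NTG. All 12 were detected, and their part in the ratio of Eng was not tested. In whole hearts, fewer cells of a type and less RNA per cell cannot be told apart. After normexp the log2 ratio of Eng was 0.06 and the endothelial median was 0.03.

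**Figure D3:**
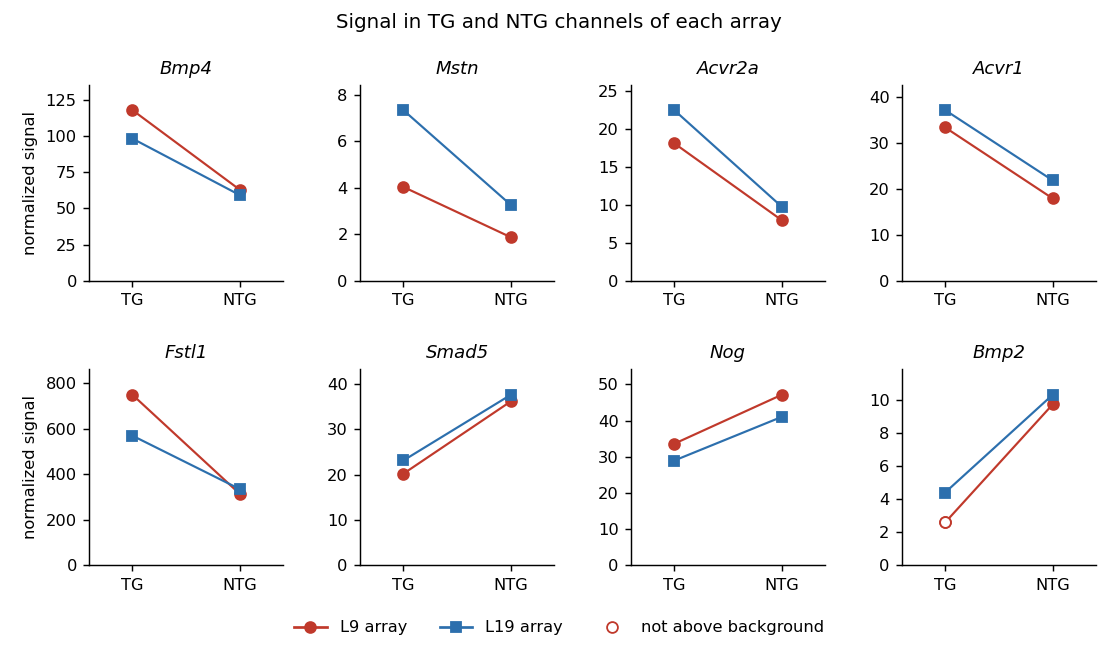
Normalized signal (y axis, from 0, a scale of its own in each panel) in the TG and NTG channels (x axis) of the L9 array (circles) and the L19 array (squares) for 8 members. Lines join the channels of 1 array, and the open circle is a signal not above background. TG signals lie above NTG for Bmp4, Mstn, Acvr2a, Acvr1 and Fstl1 and below NTG for Smad5, Nog and Bmp2 on both arrays.

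SMAD genes were mostly unlike each other in sign. Smad5, which encodes a SMAD that carries BMP signals, had signals of 20.2 in the L9 heart and 23.1 in the L19 heart, against 36.2 and 37.6 in NTG. Both TG values lay below both NTG values, which stand for 1 control sample. TG hearts had 55.9% and 61.5% of NTG, with log2 ratios of -0.84 and -0.70 and a mean of -0.77 ± 0.10 (limma, adjusted p = 0.0861, and adjusted p = 0.0083 with trend and robust options). After normexp the log2 ratio was -0.36, the same direction within 1.5-fold. Smad1, another SMAD gene of the BMP branch, was at 0.21 and -0.07, and Smad9 gave no ratio, since it was above background only in NTG on the L9 array.

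In the TGF-beta and activin branch, Smad2 had log2 ratios of 0.07 and -0.26 and Smad4, the shared partner, -0.13 and -0.07. Smad3, whose protein binds DNA at TGF-beta response genes, had 6.71 in the L9 heart and 4.84 in the L19 heart, against 2.71 and 4.92 in NTG, with log2 ratios of 1.31 and -0.02 (limma, adjusted p = 0.311). Here part of the gap lay in the NTG channels, where the difference in log2 signal, L9 array minus L19 array, was -0.75 relative to the median difference of all genes. After normexp Smad3 was at -0.03. Smad6, the inhibitor of BMP signalling, had -0.35 and -0.26 (limma, adjusted p = 0.177), and Smad7, which inhibits both branches, 0.14 and 0.43, each with opposite sign after normexp, at 0.08 and -0.10.

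Smad5 and Smad6 are shown because their windows hold SMAD motifs, in capitals. Smad5 has more than 1 annotated start. Its window shown here, at chr13:56702760-56703059 on the plus strand, holds GGCGCC 24 bases after its start. In the window at chr13:56702802-56703101 that motif begins 19 bases before the start, and the window at chr13:56703418-56703717 lacks it. The window of Smad6, at chr9:64022010-64022309 on the minus strand, holds the palindrome GTCTAGAC beginning 4 bases before its start.
Smad5: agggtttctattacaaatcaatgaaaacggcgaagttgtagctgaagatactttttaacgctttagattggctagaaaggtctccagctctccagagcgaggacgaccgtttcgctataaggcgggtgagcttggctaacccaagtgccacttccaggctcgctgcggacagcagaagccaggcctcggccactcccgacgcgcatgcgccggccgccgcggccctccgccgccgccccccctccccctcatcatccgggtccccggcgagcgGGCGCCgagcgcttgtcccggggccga
Smad6: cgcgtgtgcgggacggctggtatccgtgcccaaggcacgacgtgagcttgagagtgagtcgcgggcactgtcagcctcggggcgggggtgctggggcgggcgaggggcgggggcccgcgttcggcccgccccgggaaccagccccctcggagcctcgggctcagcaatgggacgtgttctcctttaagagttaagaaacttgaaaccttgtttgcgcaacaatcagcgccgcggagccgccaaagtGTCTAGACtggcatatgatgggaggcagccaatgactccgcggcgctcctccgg
GGCGCC was found in windows of 7 members and in 11.9% of all windows, or 19.1% of those of named genes measured on both arrays. The palindrome was found in the window of Smad6 alone among the members, and in 0.213% of all windows. Smad6 itself was within 1.5-fold of NTG in both lines.

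Among the secreted antagonists, Fstl1 was past the cutoff. FSTL1 is a secreted glycoprotein related to follistatin, made by fibroblasts and other mesenchymal cells, that restrains BMP4 in the developing mouse lung. Its signal was 748.7 in the L9 heart and 569.3 in the L19 heart, against 313.4 and 334.8 in NTG. Both TG hearts were well above both NTG values, the L9 heart more so, with log2 ratios of 1.26 and 0.77 and a mean of 1.01 ± 0.35 (limma, adjusted p = 0.0896, and adjusted p = 0.0042 with trend and robust options). After normexp it was at 1.28, and Fstl1 and Bmp4 were the members past 1.5-fold in both lines under each background correction. The normexp ratio rose with signal over all genes (Spearman's rho of 0.73), and Fstl1 was the brightest member. Passing the cutoff there is therefore no separate support for it. Fibroblast markers moved with Fstl1. Of 12, 10 were above NTG in both lines and 4 of these by 1.5-fold, and their median log2 ratio was 0.88 in L9 and 0.47 in L19. Their summed signals were 13351 and 14745 in TG hearts against 7600 and 9440 in NTG. The largest part of each sum was Gsn, at 6153 and 8208 in TG hearts against 3816 and 4875 in NTG, followed by Dcn. All 12 were detected in every channel, and their part in the ratio of Fstl1 was not tested.

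The other antagonists did not follow Fstl1. Fst, the gene of follistatin, which binds activin, was at -0.49 in L9 on the log2 scale and was not above background in the L19 heart, where it was at least 1.18-fold lower, and Fstl3, whose protein binds activin and myostatin, had -0.08 and 0.16. Nog, which encodes the BMP antagonist noggin, had 33.6 and 29.0 in the TG hearts, against 47.1 and 41.0 in NTG. The lines gave almost the same ratio, -0.49 and -0.50 on the log2 scale, or 71.0% of NTG (limma, adjusted p = 0.107, and adjusted p = 0.0254 with trend and robust options), which is short of the cutoff, and -0.17 after normexp. Chrdl1, the gene of the BMP antagonist chordin-like 1, was not above background in either channel of the L9 array and was detected in the L19 heart only, at 7.33 against a measured 1.18 in NTG, at least 5.24-fold higher.

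In some members the lines disagreed. Ltbp2, Ltbp3, Inhba and Smad3 had ratios of opposite sign with 1.5-fold or more in 1 line, 4 of 32 members (12.5%) against 4.59% of all genes and unnamed probes. Their ratios differed between L9 and L19 by more than those of 95.99%, 97.9%, 93.4% and 98.7% of all genes, and none of their signals was above 15.1. Over all genes, the SD of the difference in log2 signal between the arrays was 0.41 for the TG channels and 0.27 for the NTG channels, which carry the same sample label.

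**Figure D4:**
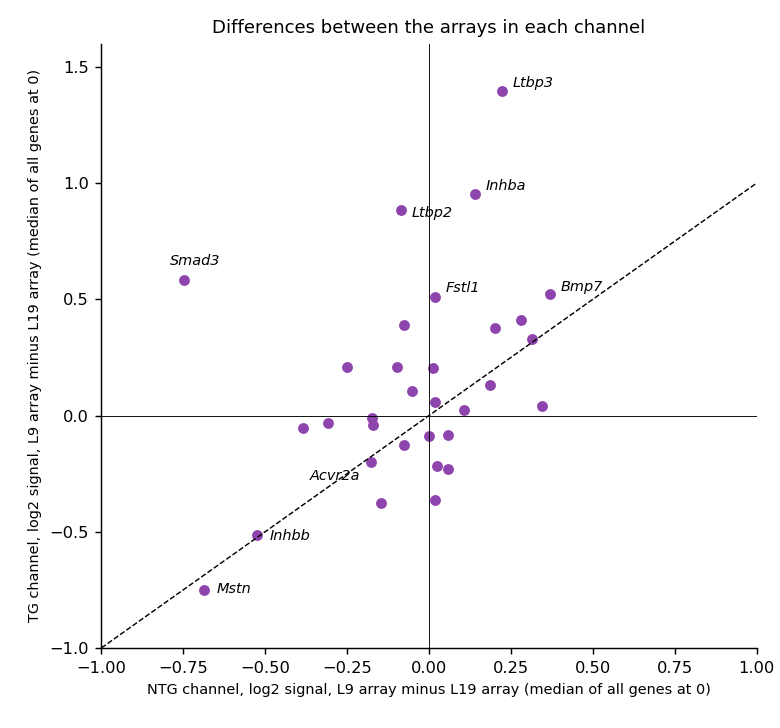
Difference between the arrays in log2 signal (L9 array minus L19 array, with the median difference of all genes set to 0) in the NTG channel (x axis) and the TG channel (y axis) for the 32 members measured on both, with the dashed line where both channels differ alike. Ltbp3, Inhba and Ltbp2 lie far above the line with little difference in NTG, Smad3 differs in both channels in opposite directions, and Mstn and Inhbb differ in both channels alike and so have nearly equal ratios in the lines.

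Other genes of the pathway were listed by their role, also with earlier results of these data known. Of 123 genes on 7 lists, 93 were measured on both arrays, 16 of them (17.2%) were higher by 1.5-fold in both lines and 2 (2.15%) were lower, against 5.2% and 3.03% of all genes and unnamed probes, with a median log2 ratio of 0.26, or 0.02 after normexp. TGF-beta response genes, many of which encode matrix proteins of fibroblasts, had 5 of 22 measured genes higher (22.7%) and none lower. Their median was 0.50, or 0.25 after normexp. Postn, the gene of the matrix protein periostin, had log2 ratios of 3.06 and 1.81, and Ccn2, the gene of connective tissue growth factor, 1.61 and 2.82. Timp1, the gene of a metalloproteinase inhibitor, had 1.30 and 0.92, Comp, which encodes a cartilage matrix protein, 0.78 and 0.82, and Thbs1, whose protein can activate latent TGF-beta, 0.71 and 1.05 from dim spots, with a mean of 0.03 after normexp. No gene of the list passed limma's adjusted threshold, and 8 were called higher with trend and robust options. The fibroblast markers moved as given above, 3 of them, Col1a1, Col1a2 and Col3a1, being on this list too.

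BMP response genes were found above and below NTG. Of 13 measured, 3 were higher by 1.5-fold in both lines (23.1%, against 5.2% of all genes and unnamed probes) and none lower. Their median was 0.11, or 0.0016 after normexp. Id2, which encodes an inhibitor of differentiation, was at 0.86 and 0.63, and Bambi, which encodes a pseudoreceptor that dampens signalling, at 0.69 in either line. Dlx5, a homeobox gene, was at 0.62 and 1.14, with a mean of -0.04 after normexp. Id1 and Id3, the usual readouts of BMP signalling, had opposite signs in the lines, -0.44 and 0.43 for Id1 and -0.24 and 0.20 for Id3.

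Further antagonist and regulator genes were higher in both lines. Of 12 other antagonist genes measured, 3 were higher by the cutoff (25.0%, against 5.2% of all genes and unnamed probes), namely Fstl4, Nbl1 and Bgn. Fstl4 was at 1.70 and 1.76 and Nbl1, which encodes a DAN-family BMP antagonist, at 1.56 and 1.79. Bgn, which encodes the proteoglycan biglycan, was at 1.54 and 0.90. After normexp the mean was 0.71 for Fstl4, 1.45 for Bgn and 0.37 for Nbl1, the last under 1.5-fold. Smurf2, whose protein marks SMADs and receptors for degradation, was the single gene past the cutoff among 20 SMAD regulators. It was at 0.63 and 0.64, with a mean of 0.27 after normexp, under 1.5-fold. Of 14 genes of ligand processing and activation, Mmp9 was at 1.06 and 1.48 from dim spots, Mmp14 at 0.90 and 0.69, and Thbs1 as given, while Itgb6, which encodes the partner of an integrin that activates latent TGF-beta, was at -1.09 and -1.75. After normexp the mean was -0.21 for Mmp9, turned in sign, 0.02 for Mmp14 and -0.06 for Itgb6. The median of that list was 0.43 and turned to -0.01 after normexp.

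Receptor and ligand genes outside the members were also measured. Of 6 other receptor and coreceptor genes measured, 2 were higher (33.3%) and 1 lower (16.7%), against 5.2% and 3.03% of all genes and unnamed probes. Amhr2, at 1.45 and 1.04 from dim spots and with a mean of -0.07 after normexp, and Bambi were higher. Hjv, which encodes the BMP coreceptor hemojuvelin of muscle and liver, was lower, at -0.72 and -1.05. Its mean after normexp was -0.28, within 1.5-fold. Cardiomyocyte markers were lower in the same hearts. Of 8, 7 were below NTG in both lines, and the median log2 ratio was -0.75, or -0.19 after normexp. Their summed signals were 110826 and 131306 in TG hearts against 201718 and 209529 in NTG. All 8 were detected, and their part in the ratio of Hjv was not tested. Of 11 other ligand genes measured, Bmp8a was past the cutoff, at 0.81 and 0.93 from dim spots, and its mean was -0.17 after normexp.

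**Figure D5:**
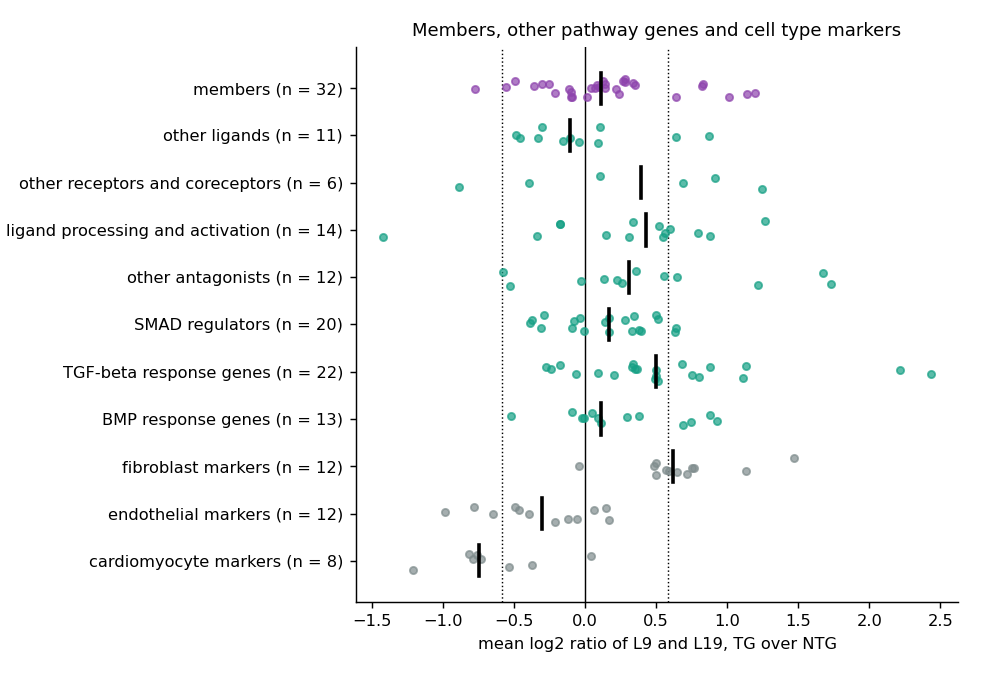
Mean log2 ratio of both lines, TG over NTG (x axis), for the measured members (purple), the genes of 7 pathway lists (green) and the markers of 3 cell types (gray), with a point for each gene and a black bar at the median. Dotted lines mark 1.5-fold. The median is 0.11 for the members, 0.50 for TGF-beta response genes, 0.62 for fibroblast markers and -0.75 for cardiomyocyte markers.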

How the data were processed

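Both arrays were 2-colour Toray 3D-Gene Mouse Oligo chips, with TG RNA in Cy3 and NTG RNA in Cy5. The authors' scanner files give the spot intensity of each channel, not normalized, and the deposited table gives log2 ratios of Cy3 over Cy5. The versions of the scanner software and the number of mice pooled are not given in the sources used here. From each intensity the mean of 2736 blank spots was subtracted, after trimming 5% at each end. Probes above that mean plus 2 SD counted as above background, and each array's ratios were divided by their median, which recovered the deposited log2 ratios of 18441 probes in L9 and 18824 in L19 within 0.001. The blank mean was 85.2 and 72.6 in Cy3 and 19.1 in Cy5 on both arrays. No ratio was taken from spots marked bad, 9 of them in L9 and 3 in L19.

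Platform gene symbols were updated through RefSeq's gene table of GRCm38.p6, which turned Ctgf into Ccn2, Hfe2 into Hjv and Gdf8 into Mstn. Of the gene probes, 6842 had no symbol and were kept unnamed. A gene with several probes was given by that with the highest mean signal among those measured on both arrays. Ltbp2 and Acvr2b had such a further probe, which was dim.

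R 4.3.3 and limma 3.58.1 (lmFit, eBayes) gave the test of the 2 log2 ratios against 0, adjusted by Benjamini-Hochberg over 17485 genes and unnamed probes. On simulated data in which few genes were changed, it recovered 0% of 1.5-fold, 0.4% of 2-fold, 74.8% of 4-fold and 94.4% of 8-fold changes. The alternatives tried were normexp with an offset of 50, loess, the deposited table, no filter on background, the upper 50% of signal, the mean over probes, another fold cutoff, a trend over signal with robust estimation, and each line left out. With 2 arrays precision is limited by their number, and levels were not compared between probes.

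The members and gene lists were chosen with earlier results of these data known, and lists are described by counts and medians without a test. Named are all members and, of each pathway list, genes past 1.5-fold in both lines, at most 6 by mean ratio, besides Ccn2, Postn, Id1, Id2 and Id3. Promoter windows are from RefSeq, and those of members on chromosome 18 were not used. Python 3.11.15, numpy 2.4.6, pandas 2.3.3 and matplotlib 3.10.9 were used.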

Additional observations from a re-analysis of the deposited data

How the results depend on the processing

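Directions of all 32 measured members held with the deposited table, loess, no filter on background, the mean over probes, trend and robust options and, for the 16 it kept, the upper 50% of signal. Normexp with an offset of 50 gave a ratio that correlated with the signal over all genes (Spearman's rho of 0.73, against -0.05 by blank-spot correction). Dim members such as Mstn (-0.19) and bright ones such as Smad4 (0.33) both turned in sign under it. Members at either end of the signal are therefore less certain. With 2 arrays whose NTG channels carry the same label, the spread of NTG mice was not measured. Each ratio was taken within an array, so TG and NTG are already paired in the test.

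After normexp, 2924 genes were higher and 443 lower by limma, against 0 and 0, and 21 were past 1.5-fold lower in both lines, against 530. Of the members, 2 (Bmp4 and Fstl1) were higher and 0 lower. Medians became 0.20 for BMP ligands, -0.20 for activin subunits and myostatin, 0.21 for BMP and activin receptors, 0.71 for follistatin-type antagonists, -0.17 for BMP antagonists (Nog alone), -0.17 for other ligands, -0.069 for other receptors, -0.0077 for ligand processing and 0.017 for all pathway lists. The log2 ratio turned in sign for 18 members, to -0.14 for Tgfb1, -0.35 for Tgfb3, 0.20 for Ltbp1, 0.17 for Bmp6, -0.43 for Bmp7, 0.23 for Bmp10, -0.20 for Inhba, -0.22 for Inhbb, -0.19 for Mstn, -0.28 for Tgfbr3, 0.058 for Eng, 0.051 for Acvr2b, -0.029 for Smad1, 0.16 for Smad2, -0.033 for Smad3, 0.33 for Smad4, 0.079 for Smad6 and -0.10 for Smad7.

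In the upper 50% of signal, where fewer genes were tested, limma called 1250 genes higher and 1287 lower. There 352 were past 1.5-fold higher and 256 lower, with 2 members (Bmp4 and Fstl1) higher and 0 lower, and medians of -0.040 for all members, -0.11 for BMP ligands, 0.33 for BMP and activin receptors, -0.30 for inhibitory SMADs, 0.033 for other ligands, -0.10 for other receptors, 0.55 for ligand processing and 0.35 for all pathway lists. Trend and robust estimation called 1831 genes higher and 1677 lower. A 2-fold cutoff left 219 genes higher and 99 lower, with 2 members (Acvr2a and Mstn) higher and 0 lower. Without the background filter 929 genes and 2 members (Bmp2 and Smad5) were lower, Tgfbr1 joined the higher members, and medians were -0.11 for BMP ligands, 0.040 for follistatin-type antagonists, 0.27 for BMP antagonists and -0.041 for other ligands. Loess gave medians of -0.042 for BMP ligands, -0.46 for BMP antagonists and 0.21 for all pathway lists, and left Mstn short of the cutoff. Beyond what is given here, the cause of these shifts was not tested.

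With either line left out, 1709 to 1857 genes were past 1.5-fold higher and 1307 to 1330 lower, and 5 to 8 members higher and 1 to 2 lower. Medians ran 0.11 to 0.12 for BMP ligands, 0.081 to 0.62 for activin subunits and myostatin, 0.0045 to 0.070 for TGF-beta receptors, -0.072 to 0.071 for receptor-regulated and common SMADs, 0.0016 to 0.030 for other ligands, 0.11 to 0.44 for other receptors, 0.054 to 0.21 for SMAD regulators and 0.19 to 0.20 for all pathway lists. The 12 members of opposite sign took the sign of the line kept: -0.089 to 0.37 for Tgfb1, -0.22 to 0.25 for Tgfb2, -0.13 to 0.84 for Ltbp2, -1.14 to 0.032 for Ltbp3, -0.26 to 0.040 for Bmp6, -0.19 to 0.62 for Inhba, -0.013 to 0.30 for Tgfbr2, -0.093 to 0.29 for Tgfbr3, -0.067 to 0.21 for Smad1, -0.26 to 0.071 for Smad2, -0.025 to 1.31 for Smad3 and -0.081 to 0.16 for Fstl3.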

Other observations

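Some further pathway genes were above background in only 1 channel and stand in no comparison above. Gdf6, a BMP-family ligand gene, was detected in TG hearts alone, at least 3.50-fold higher in L9 and 2.36-fold in L19, and Chrdl2, the gene of a chordin-like BMP antagonist, likewise, at least 2.58-fold and 2.57-fold. Wfikkn2, whose protein binds myostatin, was at least 3.74-fold lower in L9, where it was not above background in the TG heart, and had a log2 ratio of 0.11 in L19. Sost, the gene of sclerostin, was at least 1.17-fold lower in L9 and had a log2 ratio of 1.49 in L19. Both were measured in full on the L19 array only.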
